A study of Mus musculus with 3 samples.

Results

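The genes described here are the metallothioneins Mt1 and Mt2 and 3 genes that sense or move zinc, namely Mtf1, Slc30a1 and Slc39a10. They are 5 of the 15058 genes that the 2 deposited tables list between them, and all 5 are in both tables. The members were chosen by gene symbol, with their counts in these libraries already known, so their differences are given as a description and no test is made of them. RNA was sequenced from erythroblasts, nucleated red-cell precursors, that had been sorted from embryonic blood of mice at E10.5. The control library came from CD71+ Ter119-high cells of embryos of the genotype Drosha fl/fl or Drosha fl/+, with Drosha labelled as wild type. The 2 conditional knockout (cKO) libraries came from embryos of the genotype Drosha fl/fl;cdh5-cre+. In these the floxed alleles of Drosha, which encodes the nuclear ribonuclease that starts microRNA maturation, are removed by a Cre under the endothelial gene Cdh5, from cells of the endothelial lineage and their descendants. CD71+ Ter119-high cells labelled Drosha null gave what is called the null library here, and CD71+ Ter119-low cells, in which Drosha is labelled as abundant as in wild type, gave the Ter119-low library. All 3 groups carry at least 1 floxed Drosha allele, and the design text describes pools of 5 embryos. There is no Ter119-low library from control embryos. Between the cKO libraries the Drosha label and the Ter119 level differ together, and these cannot be told apart. Between the Ter119-low library and the control the same holds for the embryo genotype and the Ter119 level. The sources used here give neither strain nor sex.

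Each group has 1 library, and the spread between pools is therefore unknown. Intervals in brackets are 95% Clopper-Pearson intervals and cover counting error only, which understates the error because reads that carry no molecular identifier can be copies of 1 molecule. In such bulk RNA, fewer cells of a type and less RNA per cell cannot be told apart. Total counts were between 9325814 and 9497425 per library. Drosha itself had 324 counts in the control, 122 in the null and 244 in the Ter119-low library, counted over the whole gene and not over the deleted part alone, a log2 ratio to the control of −1.81 and −0.49. All 10 erythroblast markers on the list used here were detected in every library. Their summed level, in CPM (counts scaled to a common library size, here by TMM), was 278100 in the control, 141200 in the null and 241400 in the Ter119-low library. Most of that sum came from globin genes. In the same order, Hba-x had 128900, 78010 and 120900 CPM, Hbb-y 101800, 47160 and 85510, and Hbb-bh1 39150, 12020 and 27190. In the null library 4 of the 10 were called lower than in the control by the 2-fold rule defined further on, where 7.79% of all tested genes were. The median log2 ratio of the 10 was −0.84, with a range from −1.70 (Hbb-bh1) to −0.20 (Gata1). The part of these differences in erythroblast markers in the values that follow was not tested.

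Metallothioneins are small proteins whose many cysteines hold zinc and copper. When free zinc rises in a cell, the zinc finger protein MTF1 binds metal response elements in DNA and switches on the metallothionein genes and the zinc exporter gene Slc30a1. Slc30a1 encodes ZnT1, which moves zinc out of the cell, and Slc39a10 encodes ZIP10, which moves zinc in and whose gene MTF1 is known to repress. ZnT1, ZIP8 and ZIP10 are known from red-cell precursors, which need zinc for carbonic anhydrase and for the heme enzyme ALAD.

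Both metallothionein transcripts were far lower in the null library than in the other 2. Mt2 had 4426 counts in the control, 483 in the null and 4709 in the Ter119-low library, or 526.7, 43.3 and 528.6 CPM. Mt1 had 1730, 339 and 1521 counts in the same order, or 205.9, 30.4 and 170.7 CPM. For both genes the null value lay far outside the counting intervals of the other libraries, while the control and the Ter119-low library were close to each other. Scaled to the total count of the library alone, Mt1 and Mt2 together had 648.2 CPM in the control (632.1 to 664.6), 88.1 in the null (82.2 to 94.4) and 661.5 in the Ter119-low library (from 645.1 to 678.1).

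**Figure D1:**
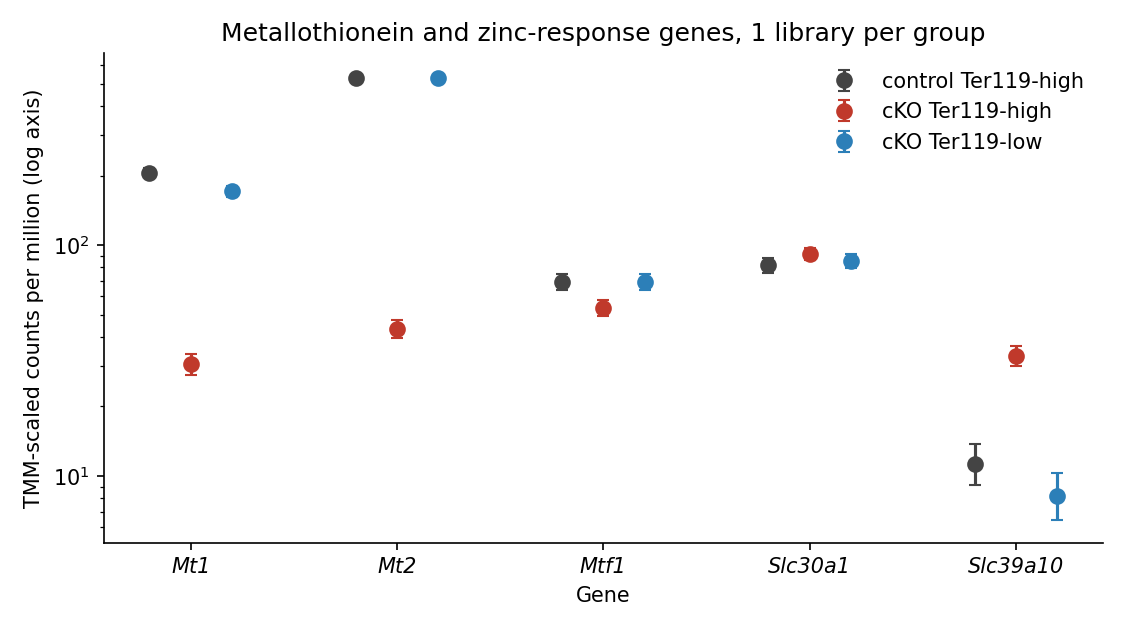
Level of each gene in the 3 libraries, in TMM-scaled CPM on a log axis. Points are single libraries and bars are 95% counting intervals. Mt1 and Mt2 are lowest in the cKO Ter119-high (null) library, at 30.4 and 43.3 CPM, and Slc39a10 is highest there, at 33.1 CPM.

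The null level of Mt2 was 12.1-fold below the control, a log2 ratio of −3.60 (−3.74 to −3.47). That of Mt1 was 6.76-fold below the control, a log2 ratio of −2.76 (−2.93 to −2.59). Between the cKO libraries, null over Ter119-low, Mt2 stood at −3.61 (−3.75 to −3.47) and Mt1 at −2.49 (−2.66 to −2.32). The Ter119-low library stood beside the control for Mt2, with a log2 ratio of 0.0049 (−0.055 to 0.064). For Mt1 it was slightly lower, at −0.27 (−0.37 to −0.17), a difference of 1.21-fold. Scaling by total counts brings the null ratios to −3.17 for Mt2 and −2.32 for Mt1, and the log2 ratios of FPKM in the authors' deposited table were −3.16 and −2.32.

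Per gene length the metallothioneins were among the abundant transcripts of the control. Mt2 had an FPKM of 954.56, the rank 54 of 13277 detected genes, and Mt1 had 353.52, the rank 132. In the Ter119-low library the FPKM were 1028.28 and 314.63, with ranks 46 and 141. In the null library they were 106.7 and 70.94, and the ranks were 350 and 556 of 13894 detected genes. The pair thus remained well detected, with 483 and 339 counts behind those values.

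The balance within the pair also differed, a measure that no scaling between libraries moves. Per length, Mt2 exceeded Mt1 by 2.68-fold in the control (2.54 to 2.84), by 3.25-fold in the Ter119-low (3.06 to 3.44) and by 1.49-fold in the null library (1.30 to 1.72). The 3 intervals do not overlap.

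A limit on these values is gene length. Mt1 and Mt2 are short, with deposited lengths of 583 and 556 bases, and in the null library short genes were lower in general. Tested genes were put into 10 classes of equal number by length. Among the 1077 genes of the shortest class (205 to 1158 bases) the median log2 ratio to the control was −0.59, and 23.4% were called lower, against a median of −0.02 over all 10769 tested genes. Within that class, 8 genes had a log2 ratio below that of Mt2 and 14 below that of Mt1. Against the Ter119-low library the shortest class had a median of −0.40, with 5 genes of 1080 below Mt2 and 17 below Mt1. The part of gene length in the metallothionein values was not tested beyond these figures.

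**Figure D2:**
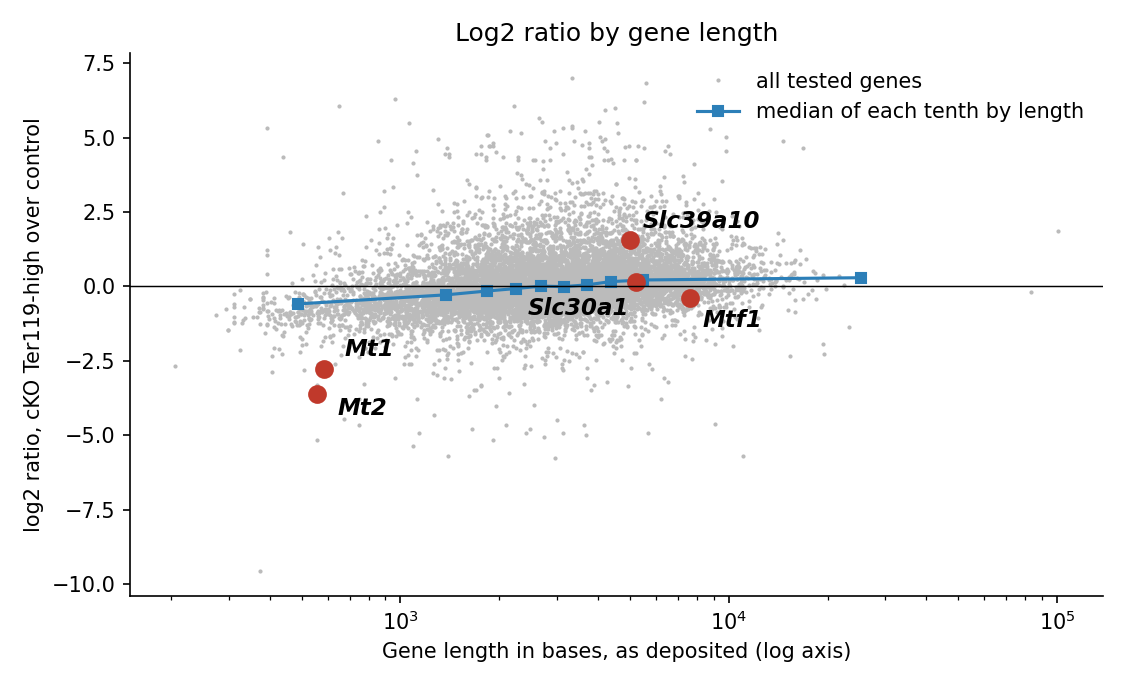
Log2 ratio of the null (cKO Ter119-high) library over the control against deposited gene length, on a log axis, for the 10769 tested genes. Squares are medians of 10 length classes of equal number, which run from −0.59 for the shortest to 0.29 for the longest genes, and red points are the 5 genes described. Mt1 and Mt2 lie far below the median of genes as short as they are.

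Mt1 and Mt2 are neighbours. In GENCODE M21 on GRCm38, Mt2 lies on chromosome 8 from 94172664 to 94173568 and Mt1 from 94179082 to 94180327, both on the plus strand, each with 3 exons in its first listed transcript and 5514 bases apart. The other metallothionein genes of the cluster, Mt4 and Mt3, lie just before them, and neither is listed in the deposited tables. Of the genes on either side of the cluster, neither was called higher or lower. Nup93, a nuclear pore gene 34237 bases beyond Mt1, had 499, 491 and 502 counts in the control, null and Ter119-low libraries, and a log2 ratio of −0.43 (−0.61 to −0.25) in the null library. Bbs2, a cilium gene on the other side, had 24, 40 and 25 counts, with a ratio of 0.32 (−0.44 to 1.12). An antisense gene, Gm45774, overlaps 749 bases of Mt2, and whether the counting used strand is not given in the sources used here. No window of 50 bases of either coding metallothionein's transcripts occurs, in the same orientation, in a transcript of another gene in GENCODE M21 (0 of 1292 for Mt1 and 0 of 554 for Mt2). Reverse complements were not searched, so sequence shared with the antisense Gm45774 could not be found this way. All counts of the 5 genes were whole.

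The start regions of Mt1, Mt2 and Slc30a1 are shown because MTF1 acts through metal response elements in them. Each sequence runs from 250 bases before the start that RefSeq gives on GRCm38.p6 to 30 bases from it on, 5′ to 3′ on the plus strand. Capitals mark the core of the element, TGCACNC or TGCGCNC, on either strand (on the other strand the letters read GNGTGCA or GNGCGCA). No core overlapped another in these windows. Mt2 is chr8:94172368-94172647, Mt1 is chr8:94178839-94179118 and Slc30a1 is chr1:191906531-191906810.
Mt2: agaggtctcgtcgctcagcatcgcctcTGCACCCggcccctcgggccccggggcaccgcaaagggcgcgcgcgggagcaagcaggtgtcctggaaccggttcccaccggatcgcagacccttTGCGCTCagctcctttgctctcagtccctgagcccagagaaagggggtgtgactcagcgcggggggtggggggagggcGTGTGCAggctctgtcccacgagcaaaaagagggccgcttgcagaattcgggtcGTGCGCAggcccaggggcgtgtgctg
Mt1: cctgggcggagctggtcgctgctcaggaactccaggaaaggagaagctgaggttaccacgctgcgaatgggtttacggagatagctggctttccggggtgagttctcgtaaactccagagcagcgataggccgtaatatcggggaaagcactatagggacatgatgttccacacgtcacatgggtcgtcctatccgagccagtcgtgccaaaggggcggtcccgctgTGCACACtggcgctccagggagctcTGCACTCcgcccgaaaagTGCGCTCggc
Slc30a1: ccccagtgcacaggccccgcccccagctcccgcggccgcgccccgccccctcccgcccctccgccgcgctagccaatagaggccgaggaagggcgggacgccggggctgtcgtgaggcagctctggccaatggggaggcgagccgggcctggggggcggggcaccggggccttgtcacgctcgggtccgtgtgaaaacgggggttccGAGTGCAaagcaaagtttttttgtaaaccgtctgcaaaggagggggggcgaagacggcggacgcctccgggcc

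The Mt2 window holds 4 cores, 2 on each strand, the Mt1 window holds 3, all on the plus strand, and the Slc30a1 window holds 1 on the minus strand. Some of these cores lie past the RefSeq start. With the start counted as 0, they are TGCACTC (2 to 8) and TGCGCTC (20 to 26) in Mt1 and GTGCGCA (4 to 10) in Mt2. Of the 32851 windows of this length in the RefSeq table, 24.1% hold 1 core or more, 1.73% hold 3 or more and 0.405% hold 4 or more. Among the 14975 windows of genes listed in the deposited tables, these shares are higher, at 32.7%, 2.73% and 0.628%. The windows of Mtf1 and Mt3 and both windows of Slc39a10 hold 0 cores, and that of Mt4 holds 1. These matches are letters only, and elements outside the windows were not searched for. GENCODE places the start of Mt2 after the RefSeq start and that of Mt1 before it. The Slc39a10 windows are chr1:46925747-46926026 and chr1:46853589-46853868. Neither holds the start that GENCODE gives that gene, 46892852 on the minus strand, so the region around that start was not searched.

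Mtf1, which encodes the zinc sensor itself, differed by less than 2-fold in every comparison. It had 583 counts in the control, 596 in the null and 616 in the Ter119-low library, or 69.4, 53.5 and 69.1 CPM. The log2 ratio of the null library to the control was −0.38 (−0.54 to −0.21) by TMM and 0.06 by total counts, so its direction depends on the scaling. The ratio of the Ter119-low library to the control was −0.0051 (−0.17 to 0.16), with the other sign under 3 of 6 alternatives. Mtf1 has a deposited length of 7631 bases, and the class of the longest genes, which holds it, had a median of 0.29 in the null library by TMM. The gene lies on chromosome 4 from 124802104 to 124849800 on the plus strand and overlaps 1110065P20Rik on the other strand by 721 bases. The ribosomal RNA gene n-R5s192 overlaps it on the same strand by 119 bases.

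Slc30a1, the exporter gene that MTF1 activates together with the metallothioneins, did not follow them. It had 686, 1017 and 762 counts in the control, null and Ter119-low libraries, or 81.6, 91.3 and 85.5 CPM. Its log2 ratio to the control was 0.16 (0.020 to 0.30) in the null library by TMM, 0.59 by total counts, and 0.067 (−0.084 to 0.22) in the Ter119-low library. In the null library it was therefore at or a little above the control while the metallothioneins were far below it. Slc30a1 has a deposited length of 5230 bases, and genes of its length class had a median of 0.22 in the null library by TMM. By that measure it did not stand above genes of its length. Slc30a1 lies on chromosome 1 from 191906767 to 191913247 on the plus strand, and the antisense gene 1700034H15Rik overlaps 761 bases of it.

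Slc39a10, the importer gene, was the member that stood higher in the null library. It had 95 counts in the control, 369 in the null and 73 in the Ter119-low library, or 11.3, 33.1 and 8.19 CPM. The null level was 2.92-fold that of the control, a log2 ratio of 1.55 (1.22 to 1.89), and 4.02-fold that of the Ter119-low library, a log2 ratio of 2.01 (1.65 to 2.40). The Ter119-low value was a little below the control, at −0.46 (−0.92 to −0.0092). Slc39a10 is a long gene, with a deposited length of 5003 bases, and the 1077 genes of its length class had a median log2 ratio of 0.22 in the null library, with 976 of them below Slc39a10. Slc39a10 lies on chromosome 1 from 46807544 to 46892852 on the minus strand. Gm28151, a long noncoding RNA gene, and Gm37393 overlap it on the same strand, by 951 and 3870 bases. These overlaps are with the whole gene, introns included, and their part in the Slc39a10 counts was not tested.

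Within each library the exporter transcript exceeded the importer transcript per length, but by different amounts. Slc30a1 was 6.91-fold the level of Slc39a10 in the control (5.57 to 8.65), 9.99-fold in the Ter119-low (7.85 to 12.9) and 2.64-fold in the null library (2.34 to 2.98). The null interval lies below the other 2, which overlap each other.

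**Figure D3:**
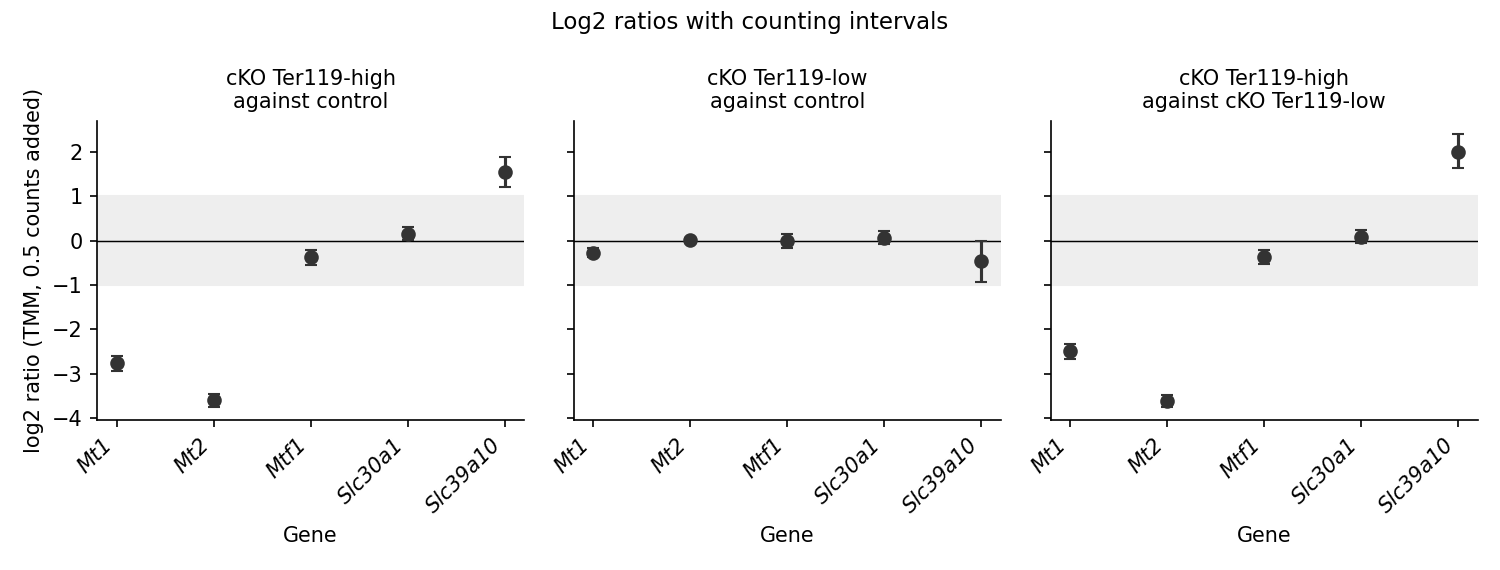
Log2 ratios of the 5 genes in the 3 comparisons, from TMM-scaled counts with 0.5 counts added, with 95% counting intervals. The grey band marks differences under 2-fold. Mt1, Mt2 and Slc39a10 lie outside the band in the comparisons that involve the null library (left and right panels), and all 5 genes lie inside it between the Ter119-low library and the control.

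A gene was called higher or lower when the ratio was at least 2-fold and its counting interval excluded 1, among genes at 1 CPM or more in either library. In the null library against the control, 2 of the 5 members were called lower, where 7.79% of all tested genes were, and 1 was called higher, where 12.4% were. In the Ter119-low library against the control, 0 of 5 were called in either direction, against 2.90% of all genes higher and 2.76% lower. Between the cKO libraries, null over Ter119-low, 2 of 5 were called lower and 1 higher, against 5.94% lower and 10.8% higher among all genes. The members were chosen on these contrasts, so nothing is read from their counts. The comparisons also share libraries, so their values are set side by side without a measure of likeness between the comparisons. By total counts the null comparison called 2419 genes higher (22.5%) and 302 lower (2.80%), in place of 1333 and 839 by TMM, and moved the median of all tested genes from −0.02 to 0.41. Between the cKO libraries the numbers were 1975 (18.3%) and 312 (2.89%), in place of 1170 and 641. Under that scaling the same 3 members were called, in the same directions.

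The wider families of zinc transporters showed no difference as large as that of the metallothioneins. These lists include Slc30a1 and Slc39a10 themselves. Of 7 zinc exporter genes of the Slc30 family at 1 CPM or more, 0 were called in the null library. Of all tested genes 12.4% were called higher and 7.79% lower, and nothing is read from the count. The exporters had a median log2 ratio of 0.16 and a range from −0.89 to 0.71. The most abundant by counts was Slc30a10, known as a manganese exporter, with 2812, 2009 and 2467 counts in the control, null and Ter119-low libraries (−0.89 in the null library). Slc30a7, which loads zinc into the Golgi, had 128, 278 and 207 counts and stood at 0.71 by TMM, and by total counts it was called higher, at 1.14.

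Of 10 zinc importer genes of the Slc39 family, 2 were called higher and 0 lower in the null library, against 12.4% and 7.79% of all tested genes, with a median of 0.52. They were Slc39a10 and Slc39a14, which encodes an importer of zinc, iron and manganese and had 19, 69 and 33 counts (log2 ratio 1.43, 0.70 to 2.27). Slc39a14 was not called on FPKM with a pseudocount of 1, at 0.84. By total counts 5 of the 10 were called higher, where 22.5% of all tested genes were. Slc39a9, an importer gene of the secretory pathway, had 162, 255 and 185 counts (0.25). The importer transcript that dominated all libraries was Slc39a8, which encodes ZIP8. It had 7097 counts in the control, 5504 in the null and 6698 in the Ter119-low library, and an FPKM of 230.9, 182.44 and 220.41. Its log2 ratio to the control was −0.77 (−0.83 to −0.72) in the null and −0.17 (−0.22 to −0.12) in the Ter119-low library. Per length, Slc39a8 was thus well above Slc39a10, whose FPKM was 2.02, 8.01 and 1.57. In the Ter119-low library against the control, 0 of the 10 importers were called higher and 1, Slc39a3 (26, 37 and 13 counts), lower, where 2.76% of all tested genes were. Slc39a3 stood at −1.06 there and was not called by total counts, at −0.96.

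**Figure D4:**
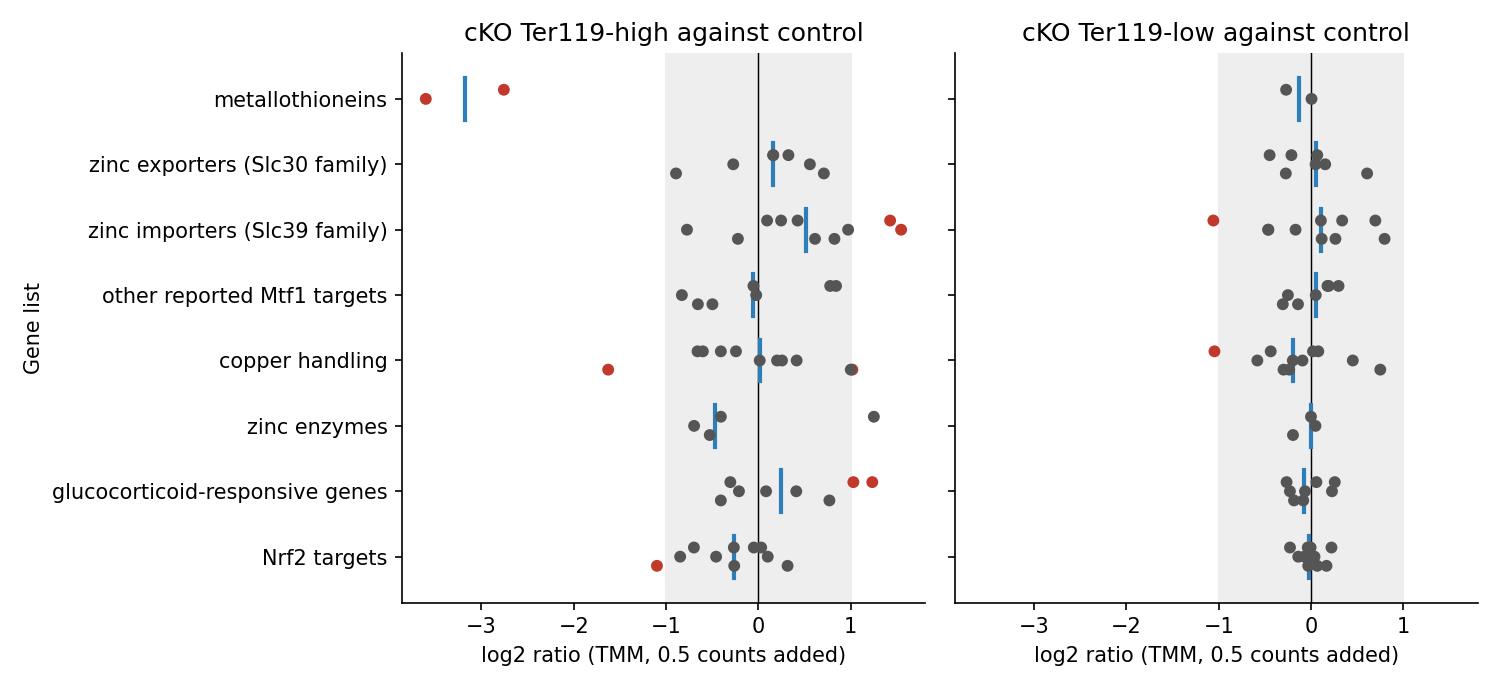
Log2 ratios to the control of the genes at 1 CPM or more on each of 8 lists, for the null (left) and the Ter119-low library (right). Points are genes, red where called higher or lower, blue bars are list medians and the grey band marks differences under 2-fold. The 2 metallothioneins, at −3.60 and −2.76, lie apart from the genes of every other list on the left, and near 0 on the right.

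Other reported targets of MTF1 did not stand as low in the null library as the metallothioneins. The 7 measured at 1 CPM or more had a median of −0.05 and a range from −0.83 to 0.84. Of these 0 were called, where 12.4% of all tested genes were called higher and 7.79% lower. With so few genes, nothing is read from that count. Sepw1, the gene of a small selenoprotein, had 2682, 2002 and 2390 counts in the control, null and Ter119-low libraries (−0.83). The iron exporter gene Slc40a1 had 145, 345 and 174 counts and stood at 0.84 by TMM, and it was called higher by total counts, at 1.27. Gclc, which encodes an enzyme of glutathione synthesis, had 519, 677 and 570 counts (−0.02 by TMM and 0.41 by total counts). By total counts 2 of the 7 were called higher, where 22.5% of all tested genes were.

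Metallothioneins also bind copper, and 1 of 11 copper handling genes was called higher and 1 lower in the null library, against 12.4% and 7.79% of all tested genes, with a median of 0.01. The copper exporter gene Atp7a had 174, 468 and 150 counts in the control, null and Ter119-low libraries (log2 ratio 1.02, 0.77 to 1.28). Cox17, which carries copper to cytochrome oxidase, had 399, 171 and 359 counts (−1.63, −1.90 to −1.37). The main copper importer gene, Slc31a1, had 327, 499 and 325 counts (0.20 by TMM). By total counts 2 of the 11 were called higher, against that 22.5% of all genes. Among 4 zinc enzymes at 1 CPM or more, 0 were called by TMM, against the same 12.4% and 7.79% of all tested genes. By total counts 1 of the 4 was called higher, where 22.5% of all tested genes were. Car2, carbonic anhydrase 2 and the most abundant of them, had 16609, 16614 and 17600 counts (−0.41 by TMM, 0.03 by total counts), and Alad had 2018, 1651 and 2212 (−0.70). Sod1, the copper and zinc superoxide dismutase gene, had 5268, 4848 and 4877 counts (−0.53). Car13, another carbonic anhydrase gene, had 6, 20 and 3 counts (1.25). In the Ter119-low library 0 of the exporters, Mtf1 targets and zinc enzymes were called against the control. In that library 1 copper gene, Sco2, was called lower (−1.05), though not by total counts (−0.95). Of all tested genes 2.90% were called higher and 2.76% lower there.

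Glucocorticoids and oxidative stress are known to raise metallothionein transcription besides zinc. Of 8 genes that respond to or mediate glucocorticoid signals, 2 were called higher and 0 lower in the null library, with a median of 0.25. Of all tested genes 12.4% were called higher and 7.79% lower, and nothing particular to the list is read from its count. Nr3c1, the glucocorticoid receptor gene, had 25, 79 and 22 counts in the control, null and Ter119-low libraries (log2 ratio 1.23, 0.59 to 1.96), and Cdkn1c stood at 1.03. On FPKM with a pseudocount of 1 Nr3c1 was not called, at 0.73, and 1 of the 8 was. Fkbp5 and Dusp1, which glucocorticoids induce, had 91, 128 and 113 and 402, 402 and 375 counts. Of 10 genes of the oxidative stress factor Nrf2 and its targets, 0 were called higher and 1, Nqo1, lower, with a median of −0.26, against the same shares of all genes. Nqo1 had 31, 19 and 37 counts and was called by TMM (−1.10) but not by total counts (−0.67). The ferritin genes Fth1 and Ftl1 stood at −0.70 and −0.85. Of these 2 lists, 0 genes were called in the Ter119-low library, where 2.90% of all tested genes were called higher and 2.76% lower.

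The genes nearest to the metallothioneins in their 2 log2 ratios to the control were looked up. Nearness was the distance between these pairs of ratios, over 5865 genes at 10 CPM or more in the control and without predicted genes. Both ratios share the control library and no cut-off was set, so the nearest genes are named as a description. The closest to Mt2 was Tinagl1, which encodes a secreted matrix protein, with 152, 12 and 159 counts in the control, null and Ter119-low libraries (distance 0.42). Next came Mt1 (0.89) and the retroviral envelope gene Synb (0.99), with 109, 6 and 85 counts. The fourth and the fifth were Pklr (1.14), the red-cell pyruvate kinase gene, and Bpgm (1.24), whose enzyme makes the hemoglobin ligand 2,3-bisphosphoglycerate. The closest to Mt1 were the pseudokinase gene Trib3 (0.41), Pklr (0.48), Bpgm (0.53), Tomm5 (0.60) and the riboflavin transporter gene Slc52a3 (0.62). Pklr had 3292, 791 and 3769 counts and Bpgm 4550, 1170 and 5117, in both cases low in the null library alone. Of the 5865 genes, 2 had a lower null ratio than Mt2 (Synb and Tinagl1) and 4 a lower one than Mt1 (these, Mt2 and Rpl30, a gene with fractional counts that may share reads with near-identical copies).

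Markers of other cell types were few in all libraries. Of the yolk sac endoderm and hepatoblast list, cells known for high metallothionein levels, 5 of 11 markers were listed in the tables, and their counts summed to 1, 11 and 3 in the control, null and Ter119-low libraries. Afp and Alb were in neither table. The trophoblast list summed to 119, 31 and 99 counts over 5 of 9 markers, of which Synb gave 109, 6 and 85. Its sum was low where the metallothioneins were low, and the part of such cells in the metallothionein values was not tested. Of the others, Krt18 had 4, 20 and 3, Krt8 had 3, 2 and 7, Gcm1 had 3, 0 and 0, and Hand1 had 0, 3 and 4 counts. Endothelial markers summed to 91, 256 and 101 counts over 9 of 9 and cardiac muscle markers to 75, 291 and 56 over 6 of 6, both highest where Slc39a10 was highest. Of 7 endothelial markers at 1 CPM or more, 2 were called higher in the null library, where 12.4% of all tested genes were. These were Pecam1, with 3, 55 and 4 counts, and Tek, with 4, 25 and 1. Of the 7, 6 had a log2 ratio above 0, and Kdr, with 22, 26 and 9 counts, stood at −0.17. Most of the cardiac sums came from Ttn, with 37, 181 and 42 counts, and Actc1, with 19, 86 and 9. Tnnt2 had 16, 20 and 0, Myh6 had 2, 0 and 0, Myl7 had 1, 1 and 3, and Nppa had 0, 3 and 2 counts. Macrophage markers summed to 33, 49 and 19, mesenchyme to 85, 143 and 78, blood progenitor to 51, 71 and 30, and megakaryocyte and platelet markers to 98, 138 and 119 counts. Their part in the Slc39a10 value was not tested.

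Since Drosha makes microRNAs, the 3′ UTRs of the 5 genes were searched for matches to the seeds (bases 2 to 8, in capitals) of 6 microRNAs, of which 3 are shown. miR-144-3p and miR-451a come from a pair of genes known for their high levels in red-cell precursors, and miR-16-5p is the one with a match in Slc39a10.
miR-144-3p: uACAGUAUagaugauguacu
miR-451a: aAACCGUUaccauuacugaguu
miR-16-5p: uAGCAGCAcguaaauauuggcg

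None of the 5 genes held a match to miR-144-3p or miR-451a, which 11.2% and 1.93% of 13055 3′ UTRs hold. Mt1 and Mt2, whose 3′ UTRs are 134 and 141 bases long, held 0 matches to any of the 6. Slc39a10 held 1 match, to miR-16-5p, a seed found in 20.6% of 3′ UTRs. The match in Slc39a10 lies at base 1892 of 2409, and it is shown with its flanks, the matched letters in capitals.
Slc39a10: gctttaacagtTGCTGCTagtat

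Slc30a1 held 4 matches, 1 to let-7a-5p, 1 to miR-16-5p and 2 to miR-17-5p, and Mtf1 held 2, 1 each to miR-17-5p and miR-92a-3p. No microRNA was measured in these libraries as analysed here, and a match is a description of the letters, not evidence of a site in use.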

How the data were processed

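Both tables set a cKO library beside the same control library, per the file headers. Per the file headers and values, the authors deposited expected counts, which are estimated read counts per gene, fractional for 1309 of 15058 genes and whole for all 5 described here. They also deposited FPKM values (counts scaled by gene length and library size, with 0.001 at 0 counts), log2 ratios of FPKM, p-values and FDR scores, of which some exceed 1. The authors' p-values and scores compare 1 library with 1 library by a test not given in the sources used here, and they were not used. The aligner, counting program and genome build are not given there either.

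The tables were joined by gene ID, with the control counts the same for all shared genes (0 differ), and a gene listed in 1 table alone was given 0 counts in the other library. Expected counts were rounded and scaled by TMM (edgeR 4.0.16, R 4.3.3; factors 0.885, 1.19 and 0.946 for the control, null and Ter119-low libraries). Log2 ratios have 0.5 counts added. With 1 library per group no model was fitted. The script was tested on simulated data. Ratios and lists were computed in Python 3.11.15 with NumPy 2.4.6, SciPy 1.17.1 and pandas 2.3.3, and drawn with matplotlib 3.10.9.

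The members, the 8 pathway and 9 marker lists and the tests were chosen with earlier results of these data known. Named from each pathway list were the 2 genes with most counts and the 2 with the largest ratio in the null library, with further genes named from their values. Alternatives were other scalings, FPKM in place of counts, other added counts, size rules and filters. RefSeq windows (GRCm38.p6) and GENCODE M21 gave sequences and positions. For 3′ UTRs the transcript numbered 201 of each gene was used, or else the longest. Protein sequences were not used here.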

Additional observations from a re-analysis of the deposited data

How the results depend on the processing

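No paired analysis was possible because each group has 1 library. Under 6 alternatives for the ratios (total counts, RLE, TMM without ribosomal RNA and globins, 2 counts added, and FPKM with a pseudocount of 1 or 0.1), the log2 ratio of the null library to the control ranged from −3.60 to −3.15 for Mt2, from −2.76 to −2.30 for Mt1 and from 1.53 to 1.98 for Slc39a10. For Mtf1 3 of the 6 had the other sign, up to 0.059. Over 34 named genes 612 alternative ratios were computed, of which 181 moved outside the counting interval and 0 turned a called direction. With a 3-fold size rule 0 members were called higher against the control in place of 1. By total counts, an alternative chosen after seeing the data, 2419 genes were called higher and 302 lower in the null library against the control, and 1975 and 312 against the Ter119-low library in place of 1170 and 641. With a filter at 10 CPM the numbers called higher and lower were 510 and 398 in the null library against the control, 17 and 14 in the Ter119-low library against the control (in place of 307 and 292), and 406 and 255 between the cKO libraries. Of the pathway genes called against the control, Nqo1, Slc39a14, Nr3c1, Slc39a3 and Sco2 each lost the call under at least 1 of the 6 alternatives, and Mt1, Mt2 and Slc39a10 under 0 of them. Depth limits the genes with few counts, such as Car13, Synb and Tinagl1, with 3, 6 and 12 counts in their lowest library. Of the members, Slc39a10 has the fewest, 73.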
